A study of Drosophila melanogaster with 6 samples.

Results

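The 2 libraries described here are the controls of a Drosophila melanogaster RNA interference experiment, 2 of its 6 libraries. They were chosen by their column names in the deposited count table, with no use of any measured value. Control S2 cells had received double-stranded RNA (dsRNA) against beta-galactosidase, a common neutral target in RNA interference, and were sampled at 3 days. The other 4 libraries, 2 with Hlc dsRNA 2 and 2 with Hlc dsRNA 3, came from the same line at the same time and had a DEAD-box helicase gene, Hlc, targeted instead. They are used below only to show where the controls differ. All 6 libraries were made from polyadenylated RNA, and none is from cells without dsRNA, so levels in S2 cells and any effect of dsRNA uptake cannot be told apart. S2 is 1 established line, so the replicates are samples of that line and not of separate animals.

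S2 cells were derived from late embryos and are widely used as a model of the plasmatocyte, the phagocytic blood cell of the fly. Fly blood cells, or hemocytes, fall into plasmatocytes, which engulf debris and secrete extracellular matrix, lamellocytes, which encapsulate parasites, and crystal cells, which carry enzymes of melanin formation. In hemocytes and the fat body, the Imd and Toll pathways detect bacterial and fungal products and switch on genes of secreted antimicrobial peptides through the NF-kappaB factors Rel, Dif and dl.

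The control libraries held 64881683 and 77803482 counts, and the 4 Hlc dsRNA libraries ran from 56195472 to 84283999. Levels are given as counts per 1000000 of the library total (CPM), in the order replicate 1 and replicate 2, or as mean ± SD with n = 2 libraries. Levels of different genes are compared as CPM per kilobase (kb) of annotated exonic bases, since a longer transcript yields more counts. A gene is called on at a mean of 1 CPM or more, and a gene with no count in either control can have up to 0.021 CPM, the level of 3 counts over both libraries. That limit covers counting error only. Hlc itself (chromosome X, 21385518 to 21387946, minus strand, BDGP6.54) stood at 238 and 245 CPM in the controls and between 18.4 and 22.8 CPM in the Hlc dsRNA libraries, so the labels and the targeted gene matched. The controls differed by more than sampling noise, with a chi-square per degree of freedom of 22.5, and were counted as 2 replicates.

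The control transcriptome was concentrated in few features. Of 23882 features in the table, 9926 had no count in either control and 8063 reached 1 CPM in both, among them 7259 of 13958 protein-coding genes. The 203 highest features held 50% of all counts. The single highest, AttB, held 1.80%, the 10 highest held 8.74%, the 100 highest 37.8% and the 1000 highest 74.5%. By level, 176 features at 1000 CPM or more held 47.6% of counts, 1396 features from 100 to 1000 CPM held 34.1%, and 4439 features from 10 to 100 CPM held 17.2%. Protein-coding genes took 93.8% ± 0.223 of counts and transposable elements 5.14% ± 0.247. The median protein-coding gene stood at 2.04 CPM. A mean of 1 CPM or more was reached by 52.5% of protein-coding genes, the reference for counts of genes on in each list.

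**Figure D1:**
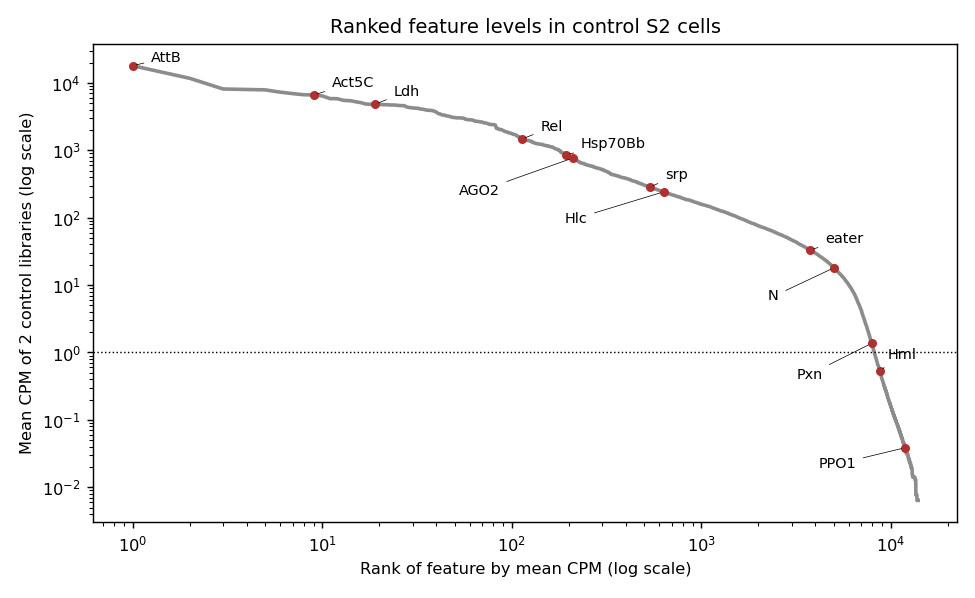
Each feature with a count in the controls is placed by its rank (horizontal, log scale) and its mean CPM over the 2 control libraries (vertical, log scale), with selected genes marked. The curve falls slowly at high levels and steeply below 10 CPM, and the dotted line at 1 CPM separates Pxn, above it, from Hml and PPO1, below it.

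Genes of protein synthesis were the largest block of the control transcriptome. The 93 cytosolic ribosomal protein genes together held 28.7% and 26.4% of counts (27.6% ± 1.58). Of these, 77 stood at 1000 CPM or more and 87 were on, with a median member at 2825 CPM. By counts the leading members were RpL5 (8351 and 7863 CPM), RpL7A (8219 and 7692 CPM), sta (7955 and 7778 CPM), which encodes a small-subunit protein, RpS7 (7655 and 6901 CPM) and RpL23A (6752 and 6565 CPM). Replicate 1 was the higher library for each of these 5. Per length the order of these 5 differed, with RpS7 at 6389.7 CPM per kb and RpL5, whose annotated exons span 3835 bases, at 2114 CPM per kb. The 6 members under 1 CPM were RpS10a, RpL37b, RpL10Aa, RpS28a, RpL22-like and RpS28-like, and the last 4 had no count.

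The 53 translation factor genes held 4.08% ± 0.0262 of counts. The highest by counts were eEF1alpha1, which delivers aminoacyl-tRNA to the ribosome, at 11574 and 11773 CPM, and eEF2, which drives ribosome translocation, at a mean of 6922 CPM. All 32 aminoacyl-tRNA synthetase genes were on, at a median of 103 CPM, and all 73 mitochondrial ribosomal protein genes were on at the lower median of 23.8 CPM. These medians are not scaled by length.

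Where a housekeeping gene has paralogues, 1 copy usually held nearly all of the counts. The eEF1alpha1 copy held 99.98% of the counts of its pair, RpS5a 99.9%, RpS19a 99.9%, RpS10b 99.99% and RpS15Aa 98.5%. RpL22, RpL10Ab and RpS28b held every count of their families. Act5C, a cytoplasmic actin, stood at 6362 and 6877 CPM and Act42A, the other cytoplasmic actin, at 1436 and 1571 CPM, while the 4 muscle actins were each under 1 CPM. Among tubulins, alphaTub84B (3019 CPM ± 88.3) held 97.8% of alpha-tubulin counts and betaTub56D (2398 CPM ± 8.08) 82.0% of beta-tubulin counts. The testis form betaTub85D stood at 0.0643 CPM and the maternal form alphaTub67C had no count.

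The proteasome followed the same pattern. Of 47 proteasome genes 34 were on, at up to 310 CPM, and 12 had no count. Prosalpha4 (311 and 294 CPM), a subunit of the catalytic core, held every count of its family, whose relatives Prosalpha4T1 and Prosalpha4T2 had none. Cyt-c-p, the general cytochrome c of the respiratory chain, likewise stood at 408 and 423 CPM against no count for Cyt-c-d, its testis form. The RpS14 pair was divided more evenly, with RpS14a at 2120 and 2073 CPM and RpS14b at 1514 and 1024 CPM. The RpS14 copies are near-identical, so how their reads were divided is uncertain.

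Antimicrobial peptide genes were among the most abundant transcripts of the control cells. The 35 measured genes held 3.95% and 4.03% of all counts (3.99% ± 0.0544), from 16 genes that were on. AttB, a peptide of the attacin family that acts on Gram-negative bacteria (chromosome 2R, 14749223 to 14750165), was the highest feature of the whole table at 17785 and 18115 CPM. It also led per length, at 20421 CPM per kb ± 265. CecA1, a cecropin that disrupts bacterial membranes (chromosome 3R, 30210874 to 30211273), followed at 14166 CPM per kb ± 416, from 4703 and 4902 CPM. The third gene per length was edin, an induced secreted peptide, at 9021 CPM per kb ± 44.0. These 3 genes ranked above every ribosomal protein gene per length.

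Other attacins and Imd-dependent peptides formed a second tier. AttA, the tandem neighbour of AttB, stood at 4465 and 4804 CPM (5866 CPM per kb ± 304), AttD at 3175 and 3188 CPM (4288 CPM per kb) and DptB, a diptericin, at 1866 and 1687 CPM (3956 CPM per kb). Dro, which encodes drosocin, reached 2107 CPM per kb and AttC 1020 CPM per kb. Drs, which encodes the antifungal peptide drosomycin and depends mainly on Toll in the fly fat body, reached 1615 CPM per kb ± 33.9. Attacin copies, and CecA1 with CecA2, are similar in sequence, so their separate values are less certain than their sum.

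The remaining peptide genes covered a wide range down to no counts. CecB stood at 811 CPM per kb, Mtk, the antifungal metchnikowin, at 340 CPM per kb, DptA at 193 CPM per kb, CecA2 at 130 CPM per kb, Def, a defensin, at 52.8 CPM per kb and CecC at 27.7 CPM per kb. DptA was therefore far below DptB, its neighbour on chromosome 2R. All 12 Bomanin genes, short secreted peptides downstream of Toll in adult flies, had no count in either control. The drosomycin-like genes Drsl1, Drsl3, Drsl4 and Drsl6 also had none, and Drsl2 and Drsl5 were at 0.0540 and 0.0462 CPM.

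**Figure D2:**
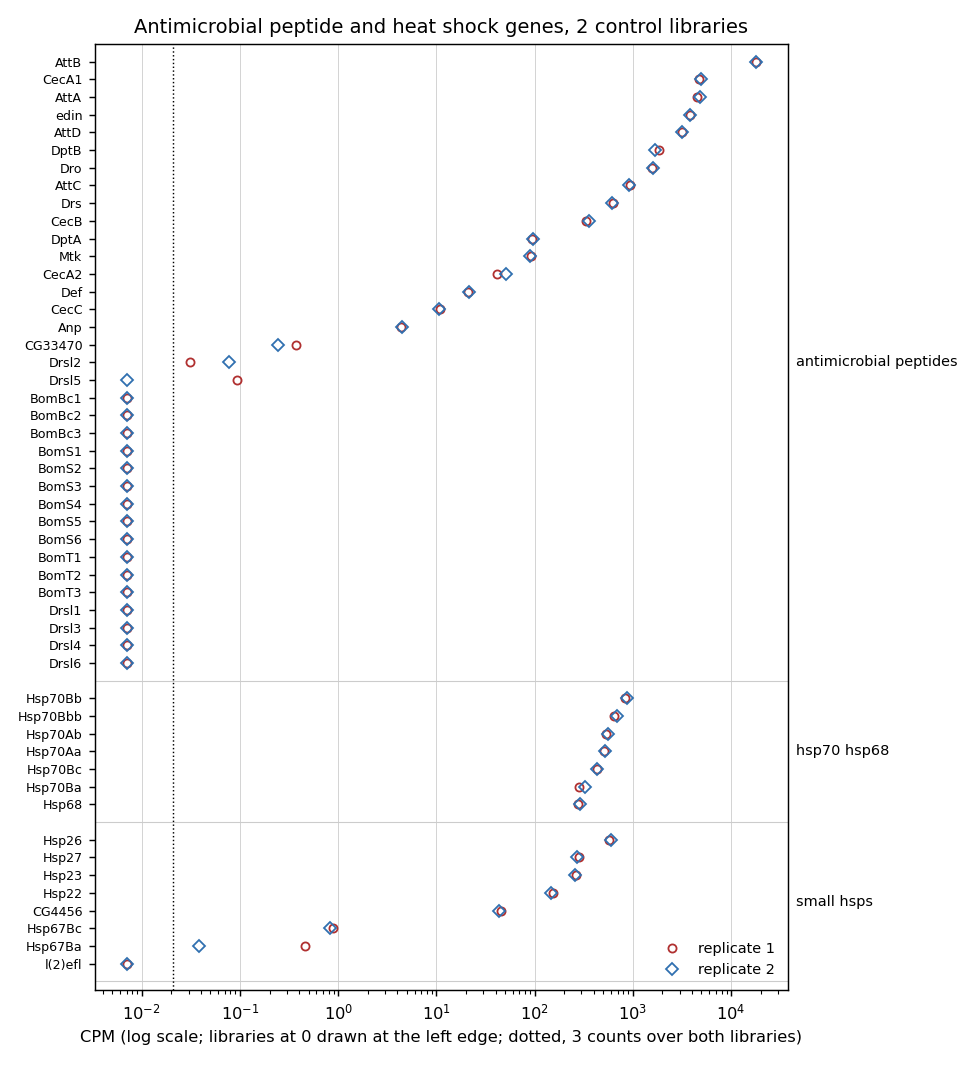
CPM of each antimicrobial peptide and heat shock gene (log scale), with a circle for control replicate 1 and a diamond for replicate 2. The replicates nearly coincide above 10 CPM, 7 peptide genes exceed 1000 CPM, and 16 peptide genes and l(2)efl sit at the left edge, where libraries with no count are drawn.

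Genes of pathogen recognition were also well represented. Of 16 such genes, 13 were on, against 52.5% of all protein-coding genes. The list holds GNBP1, GNBP2 and GNBP3, all on, beside the peptidoglycan recognition proteins (PGRP). PGRP-SA, a secreted recognition protein upstream of Toll, stood at 1419 and 1397 CPM (1383 CPM per kb ± 15.4), and PGRP-SD, a secreted recognition protein, at 708 and 737 CPM (1002 CPM per kb ± 28.3). PGRP-LC, the main Imd receptor at the cell surface, was lower at 36.6 CPM per kb, and PGRP-LE, an intracellular receptor, was at 0.773 CPM per kb. PGRP-SC2 and PGRP-LB, enzymes that cleave peptidoglycan and limit Imd signalling, were at 156 and 91.3 CPM per kb. PGRP-SB2 had no count, and PGRP-SC1a and PGRP-SC1b were under 1 CPM.

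All 11 measured genes of the Imd pathway were on. Rel, its NF-kappaB factor, stood at 1448 and 1483 CPM (419 CPM per kb ± 6.996), the highest of the list. The IKK subunit key (268 CPM per kb), the inhibitor pirk (211 CPM per kb) and the ubiquitin ligase Diap2 (102 CPM per kb) followed, and the adaptor imd stood at 58.1 CPM per kb. IKKbeta, the catalytic partner of key, was at 10.6 CPM per kb.

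In the Toll pathway 11 of 15 genes were on, against 52.5% of all protein-coding genes. The inhibitor cact (244 and 255 CPM, 75.1 CPM per kb), the kinase pll (65.7 CPM per kb) and the adaptor Myd88 (53.7 CPM per kb) were the highest per length. The factor dl stood at 21.3 CPM per kb, Dif at 3.40 CPM per kb and the receptor Tl at 5.51 CPM per kb. Upstream proteases were uneven, with grass at 67.3 CPM, SPE and modSP under 1 CPM, and psh with no count. The gene nec, whose serpin restrains psh in the fly, had no count either.

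JAK/STAT genes ranged from abundant to silent, with 9 of 17 on, against 52.5% of all protein-coding genes. Socs36E, a feedback inhibitor of the pathway, stood at 1163 CPM in each library (332 CPM per kb), and vir-1, a virus-induced gene, at 644 and 641 CPM (303 CPM per kb). The factor Stat92E was at 24.4 CPM per kb, the kinase hop at 9.55 CPM per kb and the receptor dome at 6.52 CPM per kb. Of the ligands, upd3 was at 4.83 CPM, upd2 at 0.351 CPM and upd1 had no count. Among the Turandot stress peptides TotM was at 14.1 CPM, TotA, TotB and TotC were under 1 CPM, and TotF, TotX and TotZ had no count.

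Inducible heat shock genes were clearly on. The 7 Hsp70 and Hsp68 genes were all above 100 CPM and together held 0.361% of counts. Hsp70Bb was the highest at 835 and 882 CPM, followed by Hsp70Bbb at 649 and 689 CPM, Hsp70Ab at 530 and 553 CPM, Hsp70Aa at 504 and 527 CPM and Hsp70Bc at 436 and 430 CPM. Hsp70Ba was at 282 and 328 CPM. The Hsp70 copies are near-identical, so the order among them is uncertain and their sum is the firmer value.

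Small heat shock genes were less uniform. Hsp26 led at 583 CPM per kb ± 18.8, with Hsp23 at 293 CPM per kb, Hsp27 at 170 CPM per kb and Hsp22 at 79.0 CPM per kb. Hsp22 shares all of its exonic bases with CG4456, so the division between those genes is uncertain. Hsp67Bc and Hsp67Ba were under 1 CPM and l(2)efl, a crystallin-type chaperone of muscle, had no count. Per length, the constitutive chaperone Hsc70-4, the general cytosolic Hsp70, stood at 1690.3 CPM per kb ± 16.9. Hsp83, the fly Hsp90, stood at 847 CPM per kb ± 24.2. Both were above every inducible heat shock gene listed, each taken singly. The near-identical Hsp70 copies, which with Hsp68 summed to 3606.5 CPM, were not compared per length as a sum. Hsf, the heat shock factor, stood at 73.8 CPM per kb. All 8 subunits of the CCT chaperonin, which folds actin and tubulin, were above 100 CPM.

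Metal and redox genes were split between abundant and silent members. Fer1HCH, the ferritin heavy chain, stood at 1978 and 2089 CPM (856 CPM per kb), while Fer2LCH, the light chain with which it assembles in the fly, stood at 3.99 and 4.09 CPM (2.45 CPM per kb). MtnA, a metal-binding metallothionein, was at 125 and 124 CPM (178 CPM per kb), MtnB was at 0.0643 CPM, and MtnC, MtnD and MtnE had no count. Of 20 redox genes 17 were on, led by ref(2)P, an autophagy adaptor, at 589 CPM. Per length GstD1, a glutathione transferase, led the redox genes named at 383 CPM per kb, followed by the peroxiredoxin Jafrac1 at 268 CPM per kb. Trxr-1, a thioredoxin reductase, was at 158 CPM per kb and its relative Trxr-2 had no count.

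Glycolysis genes were led by Ldh, which converts pyruvate to lactate, at 4652 and 4953 CPM (2473 CPM per kb ± 109). The 14 glycolysis genes held 1.03% ± 0.0221 of counts, or 10332 CPM, of which Ldh was 4803 CPM. Gapdh2 stood at 809 CPM per kb, Tpi at 397 CPM per kb, Eno at 376 CPM per kb and PyK at 316 CPM per kb. The kinases that commit sugar to the pathway were lower, with Hex-A at 62.2 CPM per kb and Pfk at 29.2 CPM per kb. Ald2 had no count and Hex-C was at 0.258 CPM, while Ald1 and Hex-A held nearly all counts of their pairs. All 15 genes of the citric acid cycle were on, from 25.1 CPM for ScsbetaG to 345 CPM for SdhA.

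Mitochondrially encoded genes held 0.719% ± 0.0227 of counts, most of it in 1 gene. The large ribosomal RNA mt:lrRNA stood at 4372 and 4042 CPM, against 2.64 and 1.88 CPM for the small ribosomal RNA mt:srRNA (3177 against 2.87 CPM per kb). Among the messages, mt:CoIII (848 and 1122 CPM) and mt:CoI (734 and 990 CPM), both subunits of cytochrome oxidase, and mt:Cyt-b (579 and 654 CPM) were highest, and replicate 2 was the higher library for each. The NADH dehydrogenase subunit mt:ND2 was at 0.502 CPM. Selection for poly(A) tails acts on these values, and how far it sets the differences between mitochondrial genes was not tested.

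Histone genes inside and outside the histone cluster differed in level. The 111 replication-dependent histone genes of the histone cluster, whose messages mostly lack a poly(A) tail, summed to 52.2 CPM with no gene above 1.93 CPM. The 4 histone genes outside the cluster summed to 1945 CPM. They were His3.3B at 1106 CPM, His4r, His3.3A and His2Av, and the H3.3 genes encode the replacement histone used outside S phase.

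Plasmatocyte markers were partly on. Of 22 markers 14 were on, against 52.5% of all protein-coding genes, and the list held 0.534% and 0.527% of counts. In bulk RNA, fewer cells with a transcript and less of it per cell cannot be told apart, here and for every marker below. The highest were the matrix genes Col4a1 (2066 and 1994 CPM, 329 CPM per kb) and vkg (1757 and 1674 CPM, 264 CPM per kb), which encode the chains of collagen IV and lie side by side on chromosome 2L. Nplp2, a secreted peptide gene, was higher per length at 471 CPM per kb. The scavenger receptor crq stood at 367 and 385 CPM (132 CPM per kb), and the engulfment receptor drpr at 249 and 263 CPM (53.8 CPM per kb). The GATA factor srp, required for hemocyte fate, was at 261 and 307 CPM (48.7 CPM per kb), its cofactor ush at 11.99 CPM per kb and Pvr, the PDGF and VEGF receptor of hemocytes, at 23.5 CPM per kb.

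Several genes often used to label plasmatocytes in the animal stood far below Col4a1 and vkg, from 56.1 CPM down to no count. Of these, Ppn, eater, SPARC, He and Glt were above the median protein-coding gene (2.04 CPM). The phagocytic receptor eater stood at 32.0 and 33.8 CPM (9.97 CPM per kb), He, which encodes hemese, at 9.06 and 8.56 CPM, and the peroxidasin gene Pxn at 1.74 and 0.990 CPM. Ppn, the matrix protein papilin, was at 56.1 CPM, SPARC at 15.9 CPM and Glt, glutactin, at 4.44 CPM. Hml, the clotting protein gene whose promoter drives many hemocyte transgenes, was at 0.339 and 0.733 CPM. NimB2 (0.983 CPM), Sr-CI (0.591 CPM), Sr-CII (0.125 CPM) and NimC1 (0.0835 CPM) were also under 1 CPM. NimC4 and the glial and early hemocyte factors gcm and gcm2 had no count in either control.

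Markers of the other blood cells were mixed for lamellocytes and nearly absent for crystal cells. Of 9 lamellocyte markers 7 were on, led by mys, the beta integrin (467 and 485 CPM, 106 CPM per kb), cher, a filamin (794 and 825 CPM, 85.8 CPM per kb), and msn, a kinase of the JNK pathway (496 and 535 CPM, 75.4 CPM per kb), all also expressed in other fly tissues. PPO3, the lamellocyte prophenoloxidase, stood at 51.3 and 52.2 CPM (23.2 CPM per kb), Itgbn at 26.9 CPM, ItgaPS5 at 12.3 CPM and ItgaPS4 at 2.49 CPM. The defining surface marker atilla was at 0.123 and 0 CPM, and TM4SF at 0 and 0.0643 CPM. Of 5 crystal cell markers only fuss was on, at 3.13 and 3.15 CPM. The crystal cell factor lz was at 0.344 CPM and the prophenoloxidase PPO1 at 0.0386 CPM, while PPO2 and peb had no count. Among lymph gland marker genes Tep4, a thioester protein, stood at 510 and 529 CPM and dome at 29.0 and 34.6 CPM. The fly E-cadherin gene shg stood at 2.84 and 3.18 CPM, whereas Antp and kn had no count.

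**Figure D3:**
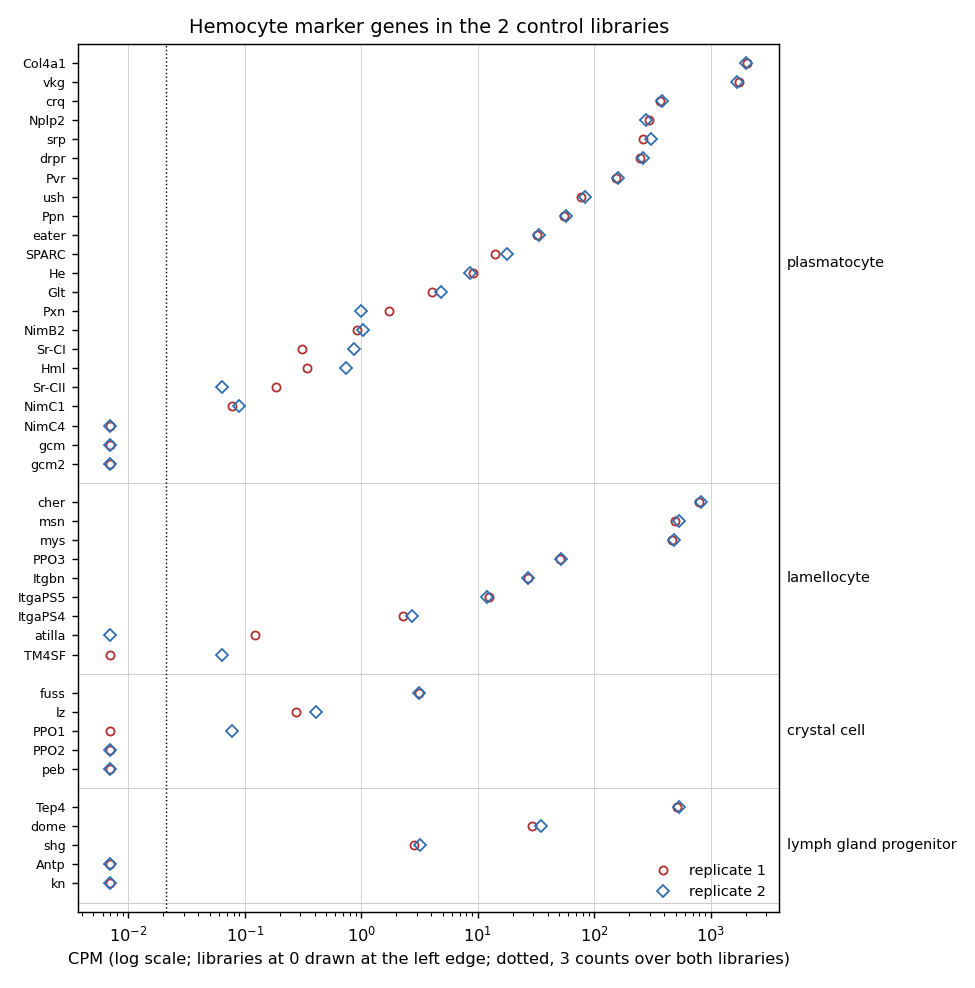
CPM of every hemocyte marker in the 2 control libraries (log scale), grouped by blood cell type, with a circle for replicate 1 and a diamond for replicate 2. Plasmatocyte markers span Col4a1 at 2030.1 CPM to 3 genes with no count, and 4 of 5 crystal cell markers lie under 1 CPM.

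The labels describe the cell type as stem cells of embryonic origin, and that label was checked against germline, stem cell and patterning genes. Of 11 germline and stem cell genes 5 were on, near the share of all protein-coding genes (52.5%). They were aub, a Piwi-family protein (68.1 and 73.4 CPM), zld, the activator of the early embryonic genome (10.3 CPM), AGO3 (3.68 CPM), zpg (2.58 CPM) and piwi (2.41 CPM). The germ cell and stem cell genes vas (0.0385 CPM), nos (0.0835 CPM) and bam (0.191 CPM) were under 1 CPM, and tj had no count. Of 22 embryonic patterning genes 20 were under 1 CPM and 14 had no count, among them eve, ftz, en, wg and Kr. The exceptions were h, a repressor of the hairy family, at 370 and 449 CPM, and twi, the mesoderm factor, at 64.9 and 65.9 CPM. All 8 Hox genes were under 1 CPM and 7 had no count. The cells are referred to here by the name of the line, S2.

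Markers of other differentiated tissues were low. None of 10 fat body genes and none of 9 gut genes was on, with highest members Yp2 at 0.185 CPM and Amy-p at 0.238 CPM. Of 8 neuronal and glial genes only brp (41.3 and 47.9 CPM), a presynaptic protein, and elav (6.35 CPM) were on. Of 8 muscle genes Mef2 (14.6 CPM), Mlc2 (5.996 CPM) and sls (2.65 CPM) were on, and the muscle myosin Mhc was at 0.206 CPM. Epithelial junction genes differed from this, with all 8 on. The septate junction gene cora stood at 289 and 328 CPM (51.0 CPM per kb) and dlg1 at 10.3 CPM per kb, while the apical determinant crb was at 0.343 CPM per kb and shg at 0.470 CPM per kb.

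Large families of chemosensory receptors, cuticle, eggshell, digestive and seminal proteins were close to silent, and cytochrome P450 genes were partly on. Of 59 odorant receptor genes 44 had no count and 2 were on, and of 60 gustatory receptor genes 49 had no count and 4 were on, led by Gr43a, a fructose receptor, at 17.0 CPM. Of 66 ionotropic receptor genes 8 were on, led by Ir76a at 27.6 CPM. Of 113 cuticle protein genes 86 had no count and 5 were on. None of 9 chorion protein genes, 16 Jonah proteases or 47 seminal fluid protein genes was on. Of 85 cytochrome P450 genes 28 were on, 14 stood at 10 CPM or more and 1 exceeded 100 CPM.

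Of 29 surface receptor genes 19 were on, against 52.5% of all protein-coding genes, led per length by the lipoprotein receptor LpR2 at 39.3 CPM per kb and by Pvr. InR, the insulin receptor, stood at a mean of 40.6 CPM (3.57 CPM per kb) and N, the Notch receptor, at 17.6 and 18.4 CPM (1.78 CPM per kb). The Notch ligand Ser was at 26.9 CPM, while the other ligand, Dl, had no count. Egfr, the fly EGF receptor, Alk and wit also had none. In the ecdysone list 11 of 17 genes were on, against the same 52.5%. ImpL2, a secreted insulin-binding protein, stood at 1529 and 1811 CPM (626 CPM per kb), above EcR, the hormone's receptor, at 1.77 CPM per kb.

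All 11 small RNA genes were on. AGO2, the effector of RNA interference, stood at 719 and 815 CPM (185 CPM per kb ± 16.5) and Dcr-2, which cuts dsRNA, at 143 and 170 CPM (27.5 CPM per kb). The microRNA counterparts were lower, with AGO1 at 6.78 CPM per kb and Dcr-1 at 6.99 CPM per kb. All 23 cell cycle genes were on but none reached 100 CPM, from CycA at 79.3 and 80.4 CPM to Cdk2 at 2.16 and 4.11 CPM. Among genes of sex and dosage compensation, Sxl was at 97.7 CPM and msl-2, whose protein is limited to males in the fly, at 65.8 CPM. Of the roX RNAs of the dosage compensation complex, roX2 stood at 34.2 and 32.4 CPM and roX1 at 0.0771 and 0 CPM.

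Transposable elements took 4.97% and 5.32% of counts, most of it from copia, a long terminal repeat retrotransposon. Its 39 copies summed to 39143 and 40625 CPM, which was 77.6% of all element counts, and 28 copies exceeded 1000 CPM. Those copies are near-identical, so the even spread over copies cannot show which of them were transcribed. The next families were blood (1258 and 1645 CPM), diver (1226 and 1499 CPM), 3S18 (1204 and 1451 CPM), pogo (1010 and 1060 CPM), mdg1 (717 and 990 CPM), 1731 (492 and 607 CPM), 297 (451 and 537 CPM), mdg3 (414 and 428 CPM) and 17.6 (287 and 360 CPM). Replicate 2 was the higher library for all 10 leading families. Of 128 family names, 83 were on, 18 exceeded 100 CPM and 5 had no count. A further 23 insertions named by a locus identifier were left out of the families, the highest being RR51007 at 1171 and 1221 CPM.

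Non-coding and unnamed genes also reached high levels. After mt:lrRNA the highest were CG32368, annotated as a non-coding RNA, at 712 CPM in each library, the hairpin RNA hpRNA:CR18854 at 459 and 403 CPM, the ribosomal RNA pseudogene 28SrRNA-Psi:CR45859 at 400.0 and 376 CPM, and lncRNA:CR42862 at 318 and 354 CPM. Of protein-coding genes known only by a CG number, CG15098 was highest at 1975 and 1936 CPM (2052 CPM per kb), followed by CG13117 at 1621 and 1627 CPM, CG32369 at 1369 and 1400.0 CPM and CG44325 at 1208 and 1140 CPM.

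The controls were set beside the 4 Hlc dsRNA libraries for 8 gene lists, to show where the controls differ. Antimicrobial peptides held 3.99% ± 0.0544 of counts in the controls and 0.0977% ± 0.0121 in the Hlc dsRNA libraries, a 41.1-fold difference. Heat shock genes held 0.493% ± 0.0125 against 0.00505% ± 0.00018, a 97.6-fold difference, and glycolysis genes 1.03% ± 0.0221 against 0.389% ± 0.0122, a 2.66-fold difference. Ldh, at 4803 CPM against 97.4 to 134 CPM, carried much of the glycolysis difference. That difference was 1.47-fold without Ldh (0.553% ± 0.000843 against 0.377% ± 0.0108). In CPM, Gapdh1 (353 against 370 to 474 CPM) and Pgk (263 against 292 to 338 CPM) were lower in the controls. Ribosomal proteins were 27.6% ± 1.58 against 21.1% ± 1.096. The controls were lower for plasmatocyte markers (0.531% ± 0.00513 against 1.54% ± 0.0705), extracellular matrix (0.652% ± 0.00136 against 1.80% ± 0.136), mitochondrially encoded genes (0.719% ± 0.0227 against 1.01% ± 0.0955) and histones (0.200% ± 0.00102 against 0.302% ± 0.0164). Without Col4a1 and vkg, the plasmatocyte list was 0.156% ± 0.00583 against 0.474% ± 0.00686. Its members did not all share that direction, since crq was at 376 CPM against 294 to 363 CPM, He at 8.81 CPM against 0.949 to 1.97 CPM, and srp at 284 CPM within the range of 249 to 336 CPM.

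For all 8 lists the controls lay outside the range of the Hlc dsRNA libraries, as did 84.8% of 8552 single features at 1 CPM or more over the 6 libraries, so non-overlap is not particular to these lists. An exact two-sided permutation test over libraries gave p = 0.133 for each list (adjusted p = 0.133 over 8 lists), the smallest p that 2 against 4 libraries allow, so no list could pass 0.05. The plasmatocyte and matrix lists share members such as Col4a1 and vkg and are not independent. The sizes of all 8 list differences depended on the scaling. With TMM factors, which set the bulk of genes equal between libraries, the controls were higher by 0.09 on the log2 scale for mitochondrially encoded genes. The histone difference went from -0.59 to -0.018 (exact permutation p = 0.8). On the same scale plasmatocyte markers went from -1.534 to -0.957, extracellular matrix from -1.462 to -0.886 and glycolysis from 1.411 to 1.987. Single genes were compared in CPM only. The small differences of Gapdh1 and Pgk and the place of srp may therefore also depend on the scaling. Within the mitochondrial list the messages and the ribosomal RNA differed. There mt:CoI stood at 734 and 990 CPM in the controls and 1968 to 2477 CPM in the Hlc dsRNA libraries. For mt:lrRNA the values were 4372 and 4042 CPM against 2337 to 3206 CPM.

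**Figure D4:**
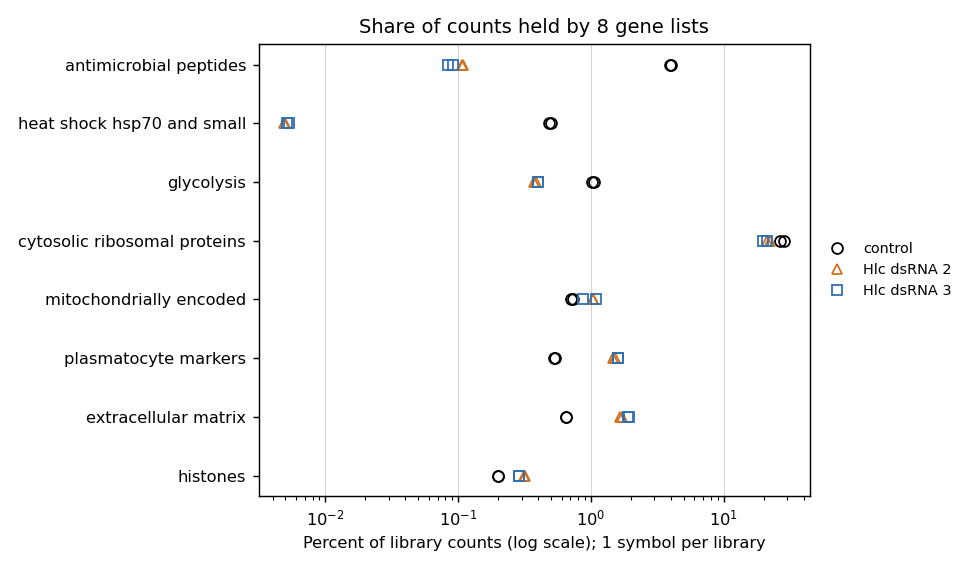
Percent of each library's counts held by 8 gene lists (horizontal, log scale), with 1 symbol per library for control, Hlc dsRNA 2 and Hlc dsRNA 3. The control circles lie to the right for antimicrobial peptides, heat shock, glycolysis and ribosomal proteins and to the left for the other 4 lists, where the mitochondrial direction reverses and the histone difference is close to 0 with TMM factors.

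The control replicates differed most among genes that overlap another gene and among transposable elements. Among 6011 features at 10 CPM or more the median absolute log2 difference was 0.0924, and 36 (0.599%) differed by more than 1.5-fold, a fold between 2 libraries with no test. Of 283 genes with at least 50% of their exonic bases shared with another gene, 25 differed by more than 1.5-fold (8.83%), against 5 of 5498 other genes (0.0909%). Of 230 transposable elements and features outside the annotation, 6 did (2.61%), and their median absolute log2 difference was 0.255, against 0.133 for the overlapping genes and 0.0892 for the other genes. CG33785 and CG33786, which share a locus on chromosome 2R (20642466 to 20643785), stood at 5.56 and 63.6 CPM and at 107 and 48.6 CPM. Each gene thus moved in the opposite direction to the other, while their sum was 112.6 CPM in replicate 1 and 112.2 CPM in replicate 2. CG46459 and CG14683 likewise summed to 67.5 and 65.9 CPM although CG46459 alone went from 30.7 to 3.52 CPM. For CG44001 and CG31650 the sum was 82.3 and 132 CPM, but it leaves out CG44000, which has the same coordinates as CG44001. There CG44001 went from 4.27 to 44.9 CPM, and CG44000 moved the opposite way, from 94.5 to 47.4 CPM. Levels of single genes in such pairs are therefore uncertain in these counts.

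**Figure D5:**
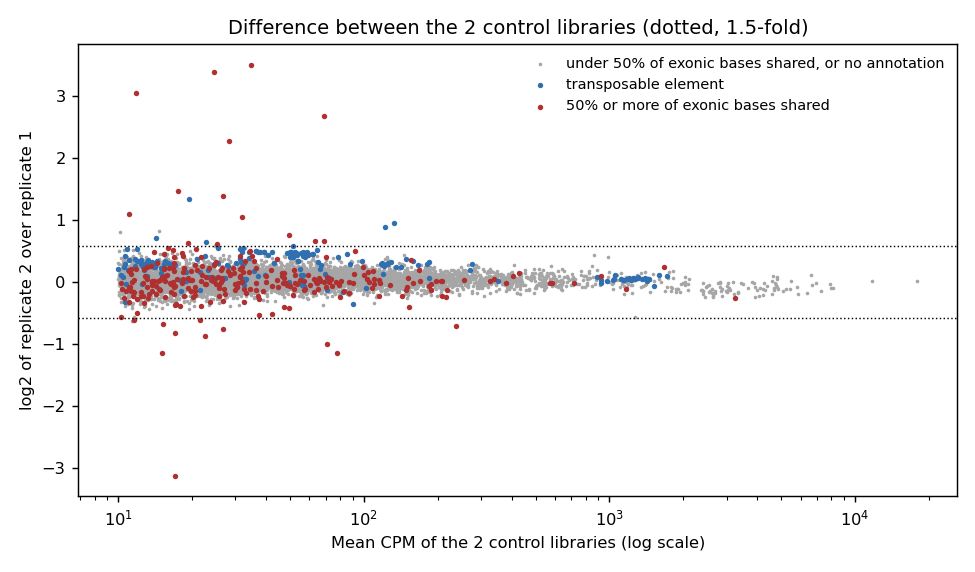
Each point is a feature at 10 CPM or more in the controls, with mean CPM on the horizontal axis (log scale) and log2 of replicate 2 over replicate 1 on the vertical axis. Most of the points outside the dotted 1.5-fold lines are genes that share at least 50% of their exonic bases with another gene.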

How the data were processed

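The authors deposited 1 table of whole-number counts per feature, not normalized, in a column for each library. Per the submitters' processing notes, which assign no roles, the tools were StringTie 2.1.7, TopHat2 2.1.0 and Trimmomatic 0.36 with the BDGP6 build. How reads were counted, whether strand was used and how reads matching several places were handled is not given in the sources used here. Values of overlapping, antisense and near-identical genes are therefore uncertain.

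Counts were divided by the column total (CPM) and by kilobases of merged exons from Ensembl release 115 of BDGP6.54, which matched 99.66% of 23882 features. A further 43 features took their class from a RefSeq gene table and have no length here. Totals of 64881683 and 77803482 counts set a floor of 3 counts, 0.021 CPM over both controls. Intervals and floors cover counting error only, and since the labels do not describe the cultures further, the spread between replicates may be partly technical.

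Named genes were the 25 protein-coding, 10 non-coding, 10 element-family and 10 CG-number genes of highest control CPM, the 5 highest and up to 6 members under 1 CPM of each list, all hemocyte markers, and Hlc. This rule allows more genes than are printed, and any other gene named was chosen after its values were seen. The members and lists were chosen with earlier results of these data known. No test compared features, so none is called changed. List shares were compared on a log2 scale by an exact two-sided permutation test over 6 libraries with Benjamini-Hochberg adjustment. The estimate of the difference, not the test, was checked on 40 simulated data sets of 23882 features with an assumed spread between libraries. There a shift of the glycolysis list with an expected log2 difference of 1.96 was estimated as 1.94 ± 0.109 (SD). Insertions were summed by the family that opens their name, with spelling variants merged. The insertion RR49783{}mdg1 (26.2 and 38.4 CPM) opens with a locus identifier and is therefore not in the mdg1 sum. Alternatives were TMM factors (edgeR 4.0.16, R 4.3.3), median-of-ratios size factors, other totals, low-count filters, thresholds and lengths, each library left out, the replicate block, and 3 lists without their highest members, added after seeing the data. Other steps used Python 3.11.15, numpy 2.4.6 and pandas 2.3.3.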

Additional observations from a re-analysis of the deposited data

How the results depend on the processing

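Of 91 alternatives over the 8 list comparisons, 89 kept their direction, which includes histones at log2 differences close to 0 (-0.018 with TMM factors and -0.024 with median-of-ratios size factors, exact permutation p = 0.8 for each, from -0.59). The exceptions were mitochondrially encoded genes, where the log2 difference of control over Hlc dsRNA went from -0.49 to 0.09 with TMM factors and 0.084 with median-of-ratios size factors. Such factors scale whole libraries, so each method moved all 8 lists by the same log2 amount by construction. Why the factors differ between the groups was not tested. With that common shift the ribosomal protein difference went from 0.39 to 0.96 with each method. With TMM factors the differences became 5.94 for antimicrobial peptides, 7.19 for heat shock genes and 1.99 for glycolysis. For plasmatocyte markers the value became -0.96 and for extracellular matrix -0.89. Lists without Ldh, or without Col4a1 and vkg, were chosen after seeing the data and kept their direction. The groups share replicate numbers, but same-numbered libraries did not deviate together in every pair of groups (correlations -0.094, 0.231 and -0.196). The labels do not say whether the numbers pair libraries. These correlations cannot decide it, since each group gives a single difference between replicates. With the number as a replicate block the log2 differences were the same by construction, for example 5.36 for antimicrobial peptides, and an exact sign-flip test over 2 blocks cannot go below p = 0.5. Leaving out 1 library gave log2 differences of 5.29 to 5.42 for antimicrobial peptides, 6.58 to 6.64 for heat shock genes, 1.39 to 1.43 for glycolysis, 0.33 to 0.44 for ribosomal proteins, -0.55 to -0.45 for mitochondrially encoded genes, -1.56 to -1.51 for plasmatocyte markers, -1.50 to -1.43 for extracellular matrix and -0.62 to -0.57 for histones.

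TMM factors assume that most genes are equal across all 6 libraries, and those of the controls were below 1 (0.753 and 0.779). Every control value therefore rose by construction, and the scaled values are no longer shares of counts. The 10 highest features went from 8.74% to 11.4%, antimicrobial peptides from 3.99% to 5.21% and ribosomal proteins from 27.6% to 36%. Transposable elements went from 5.14% to 6.71%, heat shock genes from 0.493% to 0.643% and plasmatocyte markers from 0.531% to 0.693%. With the 10 highest features left out of the total, the last 5 of these became 4.37%, 30.2%, 5.63%, 0.540% and 0.582%. Either control alone gave 8.64% to 8.84% for the 10 highest features, 3.95% to 4.03%, 26.4% to 28.7%, 4.97% to 5.32%, 0.484% to 0.502% and 0.527% to 0.534% in the same order, and 8153 to 8225 features at 1 CPM. With length taken from the longest transcript, 22 of the 25 highest genes per kb and 191 of the 200 highest were shared.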
